A study of Mus musculus with 3 samples.

Results

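The genes described here encode voltage-gated sodium and calcium channels and the channels that open on binding a neurotransmitter, measured in the choroid plexus epithelium (CPE) of the mouse. They were chosen by gene symbol alone: all probes for genes named Scn, Cacn, Gabr, Gria, Grik, Grin, Grid, Chrn, Glra or Glrb were taken, which gave 174 probes of 96 genes among 41174 probes of 27845 genes or transcripts on the array. Of the 96 symbols, 95 are current and Scn2a1 is now Scn2a. Grid2ip matched by its symbol only, since it encodes a protein that binds a delta receptor and is not itself a channel. The CPE was laser dissected from frozen brain sections of 3 healthy adult C57BL/6 mice, for which the labels name no mutation and no treatment. Each mouse was hybridised on an array of its own, with the CPE RNA in the red dye (Cy5) and 1 RNA of retinal pigment epithelium and choroid (RPE/choroid) of wild-type C57BL/6 eyes in the green dye (Cy3) as a common reference. There was 1 group of 3 mice and no dye swap, so the bias of a probe toward one dye cannot be told apart from a difference between the tissues. The tissue label held in these arrays: of 10 CPE markers measured, 8 were higher in the CPE channel than in the reference and none lower, among them transthyretin (Ttr), Klotho (Kl) and the serotonin receptor Htr2c.

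Voltage-gated sodium channels carry the upstroke of the action potential and voltage-gated calcium channels turn depolarisation into calcium entry. Each is built around a pore-forming alpha subunit, accompanied by beta subunits in sodium channels and by beta, alpha2delta and sometimes gamma subunits in calcium channels. AMPA, kainate and NMDA receptors are tetrameric cation channels opened by glutamate, GABA-A and glycine receptors are pentameric chloride channels, and nicotinic receptors are pentameric cation channels opened by acetylcholine. All are best known from neurons, retina and muscle, whereas the CPE is a secretory epithelium that makes cerebrospinal fluid.

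The channel genes lay in the lower part of the CPE signal. A signal counted as detected when it was well above background, a flag of the scanner software, on all 3 arrays. In the CPE channel 32 of 174 channel probes (18.4%) were detected, against 44.9% of all probes on the array. In the reference channel 89 channel probes (51.1%) were detected, against 61.5% of all probes. By gene, 30 of 96 had a detected probe in CPE and 62 in the reference, where the shares over all genes were 48.8% and 62.9%. The flag passed 74 channel probes in mouse 1, 36 in mouse 2 and 148 in mouse 3, and over all probes it passed 58.5%, 46% and 85.6%. The number of detected CPE genes therefore rested on mouse 2 most, and without mouse 2 it was 48.

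For the position of a probe on the array, the uncorrected red signal was averaged over the mice and ranked among all probes, and the classes of the study's methods were used: high (beyond the 90th percentile), moderate (down to the 50th), low (down to the 10th) and very low. No channel probe reached the high class, which holds 10% of all probes by construction. Of the channel probes 53 (30.5%) were in the moderate class, 101 (58%) were low and 20 (11.5%) very low. The median percentile of the channel probes was 37.3 for the CPE and 41.8 for the reference, against a median of 50 over all probes. Such a rank places a probe on the array and cannot compare the abundance of different transcripts, since probes differ in how well they hybridise.

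**Figure D1:**
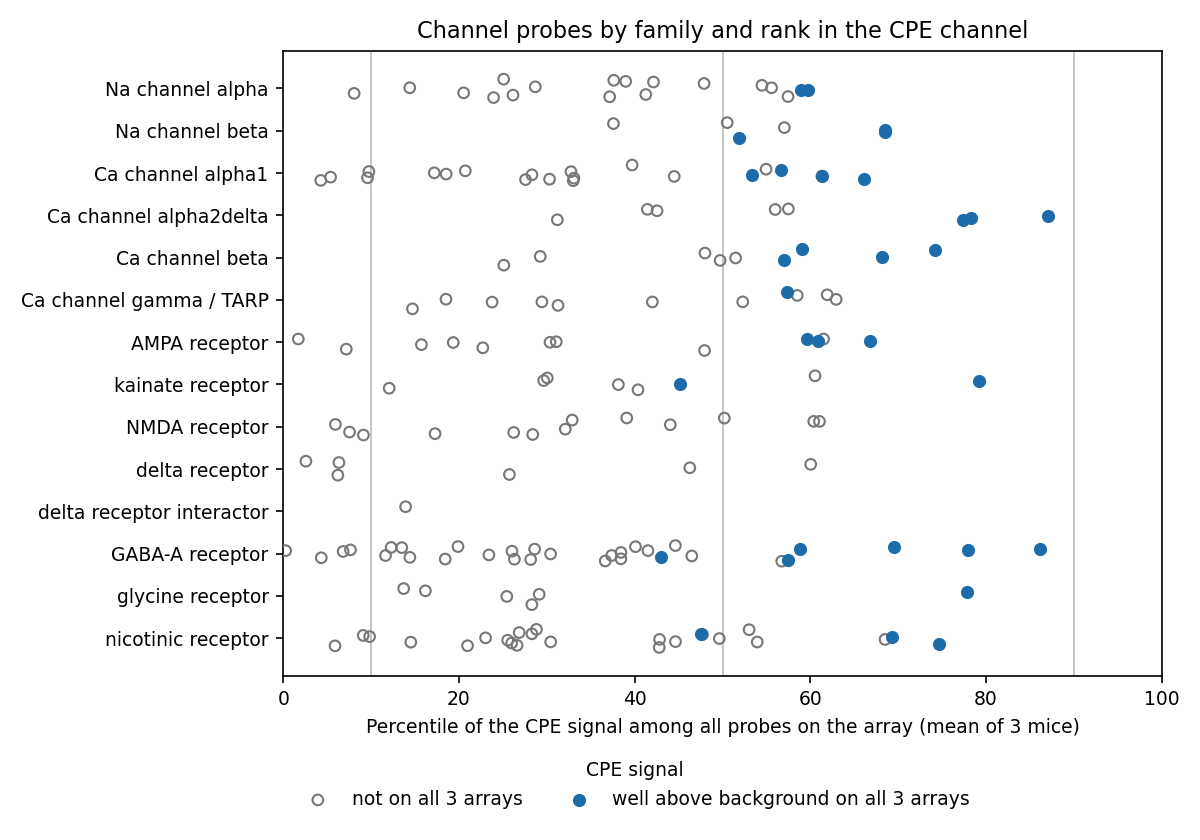
Each point is 1 channel probe, placed by the percentile of its red (CPE) signal among all probes on the array (mean of 3 mice), with 1 row per family and vertical lines at the 10th, 50th and 90th percentile. Filled points were well above background in CPE on all 3 arrays (32 of 174 probes) and open points were not, and no point lies beyond the 90th percentile.

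Probes at the top of each family show which subunits had a clear CPE signal. Cacna2d2, an alpha2delta subunit of calcium channels, stood at percentile 89.4, 81.9 and 87.6 in mice 1, 2 and 3. Gabra4, the alpha4 subunit of GABA-A receptors, stood at 85.8, 85.1 and 85.6. Both kept their place in all 3 mice, and both were well above background on all 3 arrays. The kainate receptor subunit Grik5 had a mean percentile of 79.2, the glycine receptor beta subunit Glrb 77.8, the nicotinic subunit Chrna4 74.6 and the calcium channel beta subunit Cacnb4 74.2. The sodium channel beta subunit Scn3b stood at 68.5, the AMPA receptor subunit Gria2 at 66.8 and the T-type calcium channel Cacna1h at 66.2, and these too were detected in every mouse. The sodium channel alpha subunit Scn8a had a mean percentile of 59.8 and was likewise detected on all 3 arrays. The top probes of 3 further families were not detected on every CPE array: Cacng2 at 62.9, the NMDA receptor subunit Grin2b at 61.0 and the delta receptor Grid1 at 60.0 each passed the flag in 2 mice of 3. Grid2ip stood at 13.9. In the NMDA receptor family no gene was detected in CPE on all 3 arrays, and none of the 6 probes for delta receptors was detected on all arrays in either channel. The lowest channel probe of all was that for Gabra6, at percentile 0.27.

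The question asked of the ratios was which channel genes differed between CPE and the reference. The log2 ratio of CPE over reference was tested against 0 with limma for each probe detected in at least 1 channel, 25847 probes in all, and a probe passed if its Benjamini-Hochberg adjusted p was under 0.05 and the ratio was 2-fold or more in either direction. Of the 174 channel probes 90 were tested, which represent 63 of 96 genes. Of these, 31 were detected in both channels, 58 in the reference only and 1, for Grik4, in CPE only, so most entered through the reference and the tested probes do not stand for all members. Lower in CPE were 15 probes of 13 genes (16.7% of the tested channel probes), where the share over all tested probes was 10.2%. Higher in CPE were 3 probes of 3 genes (3.33%), where the share over all tested probes was 7.09%. With no limit on the fold, 32 channel probes were lower and 4 higher at an adjusted p under 0.05, together 40% of those tested against 39.2% over all probes. The median log2 ratio of the channel probes was -0.17 and that of all tested probes -0.04, and 60 of 90 channel ratios (66.7%) were below 0 against 53.3% over all. Probes that entered through the reference alone lean below 0 by that choice, so these figures do not compare like with like. Among probes detected in both channels the median was 0.00 for the 31 channel probes and 0.02 over all. Of those 31, 7 were lower and 3 higher, where the shares over all such probes were 11.3% and 9%. The 72 channel probes that did not pass lay between -0.99 and 0.75. In bulk tissue, fewer cells that use a gene and less RNA of it per cell cannot be told apart.

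**Figure D2:**
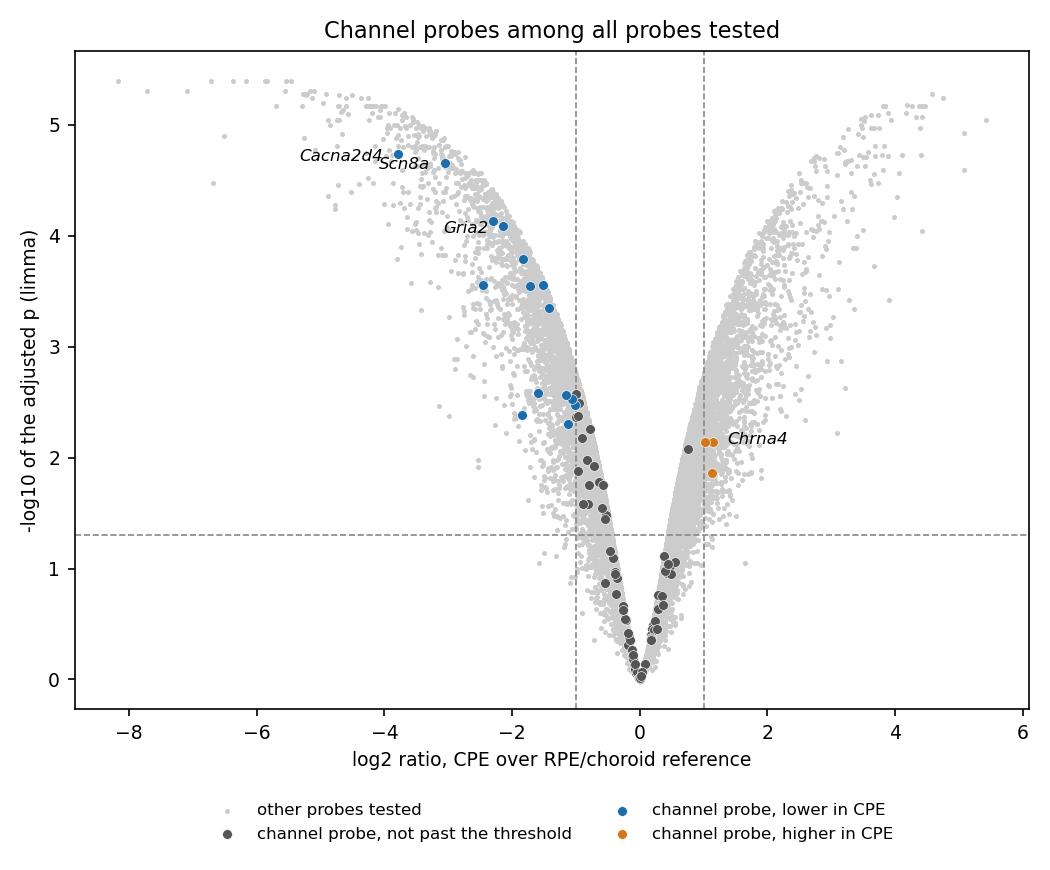
Each point is 1 of 25847 tested probes, with the mean log2 ratio of CPE over reference on the horizontal axis and -log10 of the limma adjusted p on the vertical axis. Dashed lines mark 2-fold and an adjusted p of 0.05. Of the 90 channel probes, 15 lie in the lower field with Cacna2d4 and Scn8a at its far end, 3 in the higher field, and 72 in between.

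The reference held RNA of other cell types in which these channels are known to work, and the markers of those cells moved the same way. All 8 photoreceptor markers were lower in CPE (median log2 ratio -4.78), as were 7 of 8 markers of the inner retina (-2.18), 6 of 10 of neurons (-1.44) and 8 of 10 of skeletal muscle (-2.37 over the 9 tested). The summed normalized intensity of the photoreceptor markers was 5011 to 6789 in CPE and 173056 to 178080 in the reference. For the inner retina markers it was 2174 to 2792 against 17485 to 19652, for the neuron markers 3115 to 3474 against 20181 to 22144, and for the muscle markers 1962 to 4162 against 15791 to 16279. Of the markers in these 4 lists, the muscle factor Myog alone was well above background on no CPE array. Markers of RPE and melanocytes were lower in 7 of 8 (-5.55), of astrocytes in 3 of 5 (-1.27), of chromaffin and neuroendocrine cells in 3 of 4 tested (-2.41), of smooth muscle in 2 of 6 (-1.06) and of Schwann cells in 1 of 3 tested (-0.02), while none of 5 endothelial markers passed (-0.19). The part of these cell types in the channel ratios was not tested.

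Among the 15 lower probes, 7 were detected in CPE on all 3 arrays, 6 on 2 arrays, the upstream probe for Cacnb2 on 1 and the probe for Gria4 on none. All 15 had a ratio below 0 in every mouse. Over the 18 channel probes past the threshold in either direction, the ratio nearest to 0 was that of mouse 1 in 0, of mouse 2 in 11 and of mouse 3 in 7, where the shares over all 4462 probes past the threshold were 11.1%, 28.3% and 60.6%.

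The largest difference was that of Cacna2d4, the alpha2delta subunit used by photoreceptors. Its ratios were -3.86, -3.29 and -4.21 in mice 1, 2 and 3 (mean -3.79, SE 0.20, limma adjusted p = 1.8e-05). All 3 mice lay far below 0, and the probe (chr6:119266961-119267020, mm8, plus strand) stood at percentile 90.1 in the reference channel and 31.2 in CPE. Scn8a encodes Nav1.6, a sodium channel alpha subunit of axon initial segments and nodes. Its probe at chr15:100869680-100869739 (mm8, plus strand) had ratios of -3.11, -2.73 and -3.31 (mean -3.05, SE 0.17, adjusted p = 2.2e-05). The mice again lay close together, although this probe was detected in CPE in all 3 of them. Of the 10 sodium channel alpha genes 6 were tested, and Scn8a was the only one of them to pass: Scn2a1 had a ratio of -0.91 at its lowest of 3 probes (adjusted p = 0.0067, below the fold limit), Scn1a -0.22, Scn3a 0.08 and the muscle channel Scn4a 0.28. No beta subunit passed, with Scn2b at -0.83 (adjusted p = 0.010) and Scn3b at -0.07.

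Among the pore-forming calcium channel subunits, 6 of 9 genes were tested, and the T-type channel Cacna1g was the only one of them to pass. Its ratios were -1.57, -1.40 and -1.56 (mean -1.51, SE 0.15, adjusted p = 0.00028), with less spread between mice than any other channel probe past the threshold. The other Cacna1g probe, 1054 bases upstream, was not tested, since it was not detected in either channel on all arrays. Its ratios had the opposite sign in every mouse (0.64, 0.26 and 0.39), so the result rests on 1 probe. Cacna1h, of the same T-type group, had a ratio of 0.29 (adjusted p = 0.17) and was detected in CPE in every mouse. Cacna1s, the muscle L-type channel, had ratios of -0.64 and -0.08 at its 2 probes, Cacna1f, the L-type channel of photoreceptors, -0.52 (adjusted p = 0.033), and Cacna1d 0.00 and 0.01. None of the probes for Cacna1a, Cacna1b and Cacna1i, channels of nerve terminals and central neurons, was tested, since none was detected in either channel on all arrays.

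The alpha2delta family held probes past the threshold in both directions. Cacna2d3 had ratios of -1.33, -1.31 and -1.64 (mean -1.43, SE 0.16, adjusted p = 0.00045), and was detected on every CPE array. With median centring in place of loess its ratio was -0.91 (adjusted p = 0.059) and no longer passed. Cacna2d1, the form of skeletal muscle and many neurons, had ratios of 0.00 and 0.23 at its 2 probes. Among the beta subunits Cacnb2, found in heart and in photoreceptor terminals, was lower at 2 of 3 probes. Cacnb1 had a ratio of 0.39, Cacnb3 0.19 and Cacnb4 between -0.19 and 0.36 over 3 tested probes, none past the threshold. The gamma family, which includes the auxiliary proteins of AMPA receptors, had 5 genes tested and none past the threshold, from -0.89 for Cacng5 to 0.21 for Cacng2. The Cacng2 probe tested was at percentile 61.9, and the one that led the family was not tested.

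The AMPA receptor was the family with the lowest median ratio among those with more than 2 tested probes. All 4 genes, Gria1 to Gria4, had a probe past the threshold, all 9 tested probes had a mean ratio below 0, and their median was -0.96. Probes that entered through the reference alone were among the 9, and such probes lean below 0 by that choice. By gene, 3 of the 4 had a probe detected in CPE. The ratio of the second Gria1 probe (-0.11) was above 0 without mouse 3 (0.047). Gria2, the subunit that makes the channel impermeable to calcium, had ratios of -2.33, -2.25 and -1.87 (mean -2.15, SE 0.16, adjusted p = 8.2e-05). Its other probes were not tested and had ratios nearer 0, of -0.26, -0.07 and -0.07 and of -0.60, -0.26 and -0.15. Gria1 had ratios of -1.63, -0.93 and -0.93 (mean -1.16, SE 0.19, adjusted p = 0.0027), and mouse 1 lay apart from the others. Without mouse 1 the ratio of Gria1 was -0.93, and with median centring in place of loess it was -0.88 (adjusted p = 0.044), both below the fold limit. For Gria3 the ratios were -1.14, -0.66 and -1.24 (mean -1.01, SE 0.17, adjusted p = 0.0033), at the edge of the fold limit, and its call was lost without mouse 1 (-0.95), without mouse 3 (-0.90) and with no background correction (-0.75). For Gria4 they were -1.08, -0.72 and -1.36 (mean -1.06, SE 0.18, adjusted p = 0.0029), and the call was lost without mouse 3 (-0.90) and with no background correction (-0.70). Gria4 was well above background on no CPE array, so its ratio rests on a CPE signal that did not pass the flag. Where that signal was dimmer than the dimmest signal that passed the flag on an array, the latter was used. Gria4 was then 2.03-fold lower in CPE. This value is no lower limit, since the alternative ratios of -0.90 and -0.70 are smaller in size. The measured means were 6.53 in CPE and 7.58 in the reference on the log2 scale.

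Of the 7 NMDA receptor genes 4 were tested, and their ratios ran from -0.26 for Grin2b to 0.39 for Grin1, the obligatory subunit, with none past an adjusted p of 0.05. The Grin2b ratio is that of a probe at percentile 44.1. The probe of Grin2b that led the family was not tested and had ratios of 0.63, 0.23 and 0.27. In the kainate family Grik1 had a ratio of -0.82 (adjusted p = 0.026), Grik2 0.02 and Grik4 0.54 (adjusted p = 0.087), and Grik5 alone passed, with a higher level in CPE (1.12).

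Of the 18 GABA-A receptor genes 13 were tested, and 4 were lower in CPE, none higher. Among the lower ones was Gabrr1, the rho1 subunit of bipolar cells of the retina. Its ratios were -1.90, -1.37 and -1.87 (mean -1.71, SE 0.17, adjusted p = 0.00029). Gabra2 had a ratio of -0.72 (adjusted p = 0.012) at a probe detected in CPE in 2 mice and -0.55 (adjusted p = 0.035) at one detected in 1, both below the fold limit. Its remaining probe was well above background on no CPE array. By its measured means of 6.75 in CPE and 7.53 in the reference it was 1.73-fold lower (adjusted p = 0.018).

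The GABA-A subunits with a clear CPE signal were others. Gabra4 had ratios of 0.31, 0.05 and 0.15, Gabrb1 0.58, 0.10 and -0.02, Gabrg1 0.16, 0.80 and 0.10, and the delta subunit Gabrd -0.60, -0.07 and 0.50. All 4 were detected in CPE in every mouse. Their mean ratios ran from -0.05 to 0.35, and none passed an adjusted p of 0.05 (limma adjusted p of 0.18 to 0.87). A ratio near 0 says that both tissues gave a like signal and is no measure of absence. Of the 5 glycine receptor genes 2 were tested. Glrb, the subunit that binds gephyrin, had ratios of -1.31, -0.77 and -0.80 (mean -0.96, SE 0.17, adjusted p = 0.0042), just short of the fold limit, and Glra2 a mean of -0.78 (SE 0.15, adjusted p = 0.0056).

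**Figure D3:**
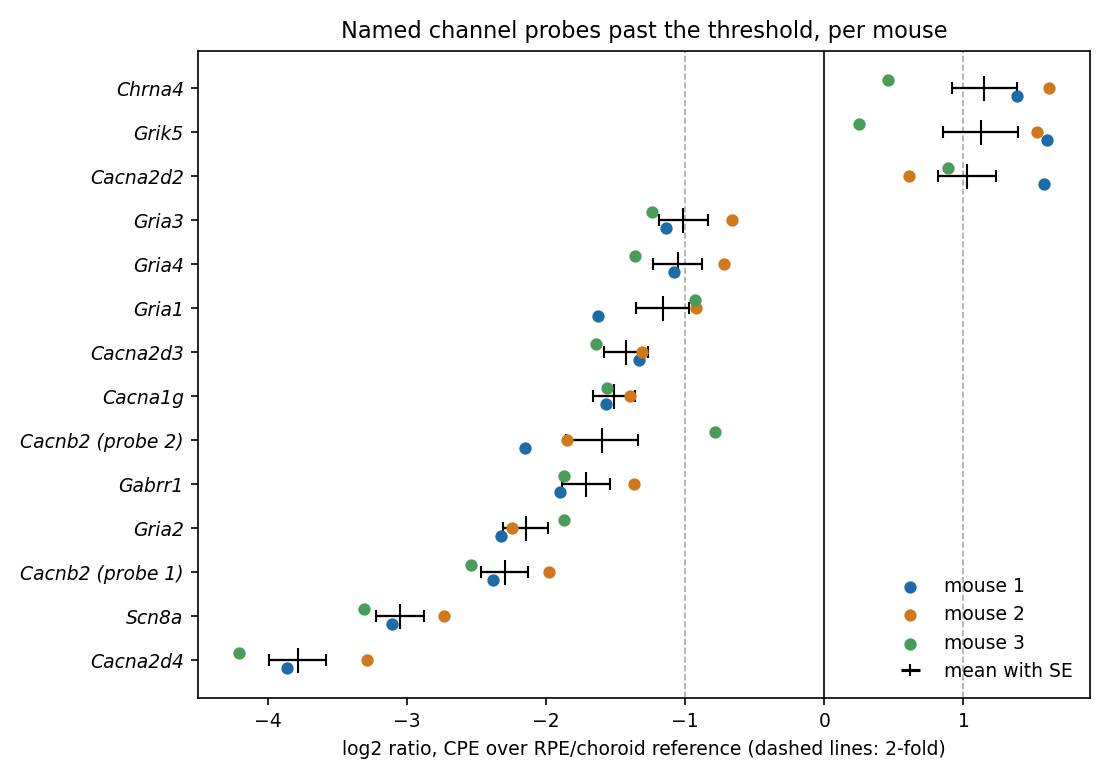
Log2 ratio of CPE over reference for 14 of the 18 channel probes past the threshold, with 1 coloured point per mouse, the mean as a tick and its standard error from limma as the bar. Dashed lines mark 2-fold. All mice share the sign of the mean at every probe shown, with 11 probes below 0 and 3 above.

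The 3 genes that were higher in CPE belonged to 3 different families. Chrna4, a neuronal nicotinic subunit, had ratios of 1.38, 1.62 and 0.45 (mean 1.15, SE 0.23, adjusted p = 0.0072). Grik5, a kainate subunit that forms channels only together with Grik1, Grik2 or Grik3, had ratios of 1.60, 1.53 and 0.25 (mean 1.12, SE 0.27, adjusted p = 0.014). Mouse 3 was above 0 but well under the other mice for both. Of the markers of ependyma, the ciliated lining of the ventricles that borders the choroid plexus, 3 of 4 were also higher in CPE (median 2.85). The remaining one, Rarres2, went the other way (-0.74, limma adjusted p = 0.0077, below the fold limit). It was the brightest of the 4 in the reference. The cilia genes Foxj1 and Spag6 had ratios of 3.65, 3.57 and 1.73 and of 3.92, 3.69 and 2.41, with mouse 3 the lowest. Mouse 3 was nearest to 0 in 60.6% of all 4462 probes past the threshold, so this order is common on these arrays. The summed intensity of the ependyma markers was 7011 to 11731 in CPE and 5834 to 7208 in the reference. Of the oligodendrocyte markers 1 of 4 tested was higher (median 0.63 over the list), with sums of 5125 to 6305 against 3374 to 3640. Whether the signal of the ependyma markers came from ependyma or from the CPE cells themselves was not tested. The part of ependyma and oligodendrocytes in the higher channel ratios was not tested either. Cacna2d2 had ratios of 1.58, 0.61 and 0.89 (mean 1.03, SE 0.21, adjusted p = 0.0072), and here mouse 1 stood above the others. Its second tested probe had a ratio of 0.75 (adjusted p = 0.0084), the highest among the channel probes that did not pass. All 3 genes were detected in both channels on all arrays, but each call was lost under at least 1 alternative. Chrna4 fell below the fold limit without mouse 2 (0.92), Grik5 without mouse 1 (0.89, adjusted p = 0.075) or mouse 2 (0.92), and Cacna2d2 without mouse 1 (0.75, adjusted p = 0.057) and with no background correction (0.95).

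Of the 16 nicotinic receptor genes 8 were tested and Chrna4 alone passed. Chrna6, a subunit of catecholamine neurons and of the retina, had a ratio of -0.96 (adjusted p = 0.0032), just short of 2-fold, and was detected in CPE in 1 mouse. One probe of Chrnb3, found in the same cells, was well above background on no CPE array. By its measured means of 6.69 in CPE and 7.68 in the reference it was 1.99-fold lower (adjusted p = 0.0043). The other Chrnb3 probe had a ratio of -0.26 (adjusted p = 0.24). Chrnb2, which combines with Chrna4 in the main high-affinity nicotine receptor of the brain, had ratios of -0.77, -0.74 and -0.26 (mean -0.59, adjusted p = 0.028), with a sign opposite to that of Chrna4 in each mouse. Chrna9, of cochlear hair cells, was detected in CPE in every mouse with a ratio of 0.45 (adjusted p = 0.091), and its other probe was the only channel probe above the 90th percentile in any mouse (90.9 in mouse 3). Of the subunits of the muscle receptor, Chrnb1 had a ratio of -0.05 and Chrng -0.02, and Chrna1, Chrnd and Chrne were not tested. The homomeric receptor subunit Chrna7 was not tested either, at percentiles of 25.5 and 23.0.

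Promoter sequence was set beside these directions for the genes past the threshold, since the channel genes had been chosen by symbol alone. Windows of the 250 bases before the annotated start came from RefSeq (GRCm38.p6), where 69 of the 96 genes had at least 1 window, among them the 3 higher genes and 6 of the 13 lower ones. They were searched on both strands for GGGCGG, the GC box bound by Sp1-type factors, for TATAAA, the TATA box, and for GGACAGC, part of the RE1 element bound by the repressor REST. These letters do not overlap one another. The windows of the 3 higher genes are shown with those of Cacna2d3, a lower gene with GC boxes, and Gria2, a lower gene with the RE1 letters. Each is written in the direction of transcription, and capitals mark these motifs on either strand.
Chrna4 (chr2:181039178-181039427, minus strand): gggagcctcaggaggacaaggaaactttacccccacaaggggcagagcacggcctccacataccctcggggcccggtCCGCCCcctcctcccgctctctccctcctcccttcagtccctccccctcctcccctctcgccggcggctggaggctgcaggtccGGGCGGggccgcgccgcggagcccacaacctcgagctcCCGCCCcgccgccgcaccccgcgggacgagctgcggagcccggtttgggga
Grik5 (chr7:25072370-25072619, minus strand): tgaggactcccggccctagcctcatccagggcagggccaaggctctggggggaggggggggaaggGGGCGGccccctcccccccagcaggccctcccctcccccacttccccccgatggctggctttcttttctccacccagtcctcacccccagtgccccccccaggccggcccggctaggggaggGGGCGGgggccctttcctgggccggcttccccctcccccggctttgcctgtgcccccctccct
Cacna2d2 (chr9:107399630-107399879, plus strand): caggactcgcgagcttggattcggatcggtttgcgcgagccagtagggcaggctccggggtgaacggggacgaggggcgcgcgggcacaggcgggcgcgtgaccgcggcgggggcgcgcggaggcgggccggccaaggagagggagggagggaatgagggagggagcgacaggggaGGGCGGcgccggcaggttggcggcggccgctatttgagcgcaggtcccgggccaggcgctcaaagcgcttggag
Cacna2d3 (chr14:29721865-29722114, minus strand): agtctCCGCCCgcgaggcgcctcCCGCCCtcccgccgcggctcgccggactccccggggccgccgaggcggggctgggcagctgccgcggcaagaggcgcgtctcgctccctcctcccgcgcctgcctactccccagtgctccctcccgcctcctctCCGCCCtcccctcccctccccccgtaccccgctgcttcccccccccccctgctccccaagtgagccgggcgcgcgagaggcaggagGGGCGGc
Gria2 (chr3:80802836-80803085, minus strand): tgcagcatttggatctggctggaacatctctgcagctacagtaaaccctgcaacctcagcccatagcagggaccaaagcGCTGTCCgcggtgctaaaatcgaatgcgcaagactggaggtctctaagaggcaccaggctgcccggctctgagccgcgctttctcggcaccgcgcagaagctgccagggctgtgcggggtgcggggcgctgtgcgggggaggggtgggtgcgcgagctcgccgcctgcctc

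All 3 higher genes held a GC box, Chrna4 at 3 places, Grik5 at 2 and Cacna2d2 at 1. Among the lower genes 3 of 8 windows held one, those of Cacna2d3, Gabrr1 and 1 of 2 for Cacnb2. Over all 32851 windows the share was 32.7%, and over the 84 windows of channel genes 41.7%. The windows also differed in base composition. The median number of CG pairs was 24 in the 3 windows of higher genes and 17.5 in the 8 of lower genes. It was 8.5 over channel genes and 6 over all windows. The part of base composition in the GC box counts was not tested. No window of a higher or lower gene held a TATA box, where the share was 12.4% over all windows and 9.52% over channel genes. The RE1 letters stood in 4 of 84 channel windows (4.76%) and in 5.28% of all windows, and Gria2 was the only gene past the threshold that held them. These are matches of letters in a window, and the rest of an RE1 element was not searched for.

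Different probes of the same gene did not always give the same answer. In 9 genes, some tested probes passed and others did not. The gap was widest in Scn8a, where the second probe, 1255 bases upstream along the genome, had ratios of -0.38, -0.11 and 0.22 (mean -0.09, adjusted p = 0.73) against a mean of -3.05 at the 3′-most probe. In Cacnb2 the 3′-most probe had ratios of -2.15, -1.85 and -0.79 (mean -1.60), the probe 22413 bases upstream -0.27, -0.15 and 0.39 (mean -0.01) and the probe 23006 bases upstream -2.38, -1.98 and -2.54 (mean -2.30). Both outer probes of Cacnb2 thus passed and the middle one did not. In Gria1 the mean ratio was -1.16 at the 3′-most probe and -0.11 at 40527 bases upstream. In Gria4 it was -1.06 at the 3′-most probe, -0.39 at 84010 bases and -0.39 at 244928 bases. In Gria3 it was -0.96, -0.36 at 23732 bases and -1.01 at 65210 bases, so that its passing probe was the one farthest upstream. In Cacna2d2 the passing probe lay 219 bases upstream of the other tested probe. Of the 8 genes with more than 1 tested probe and a probe lower in CPE, the lowest ratio was at the 3′-most probe in 6, and the reference signal was brightest at the 3′-most probe in 7. The part of probe position and of reference signal in these gaps was not tested.

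**Figure D4:**
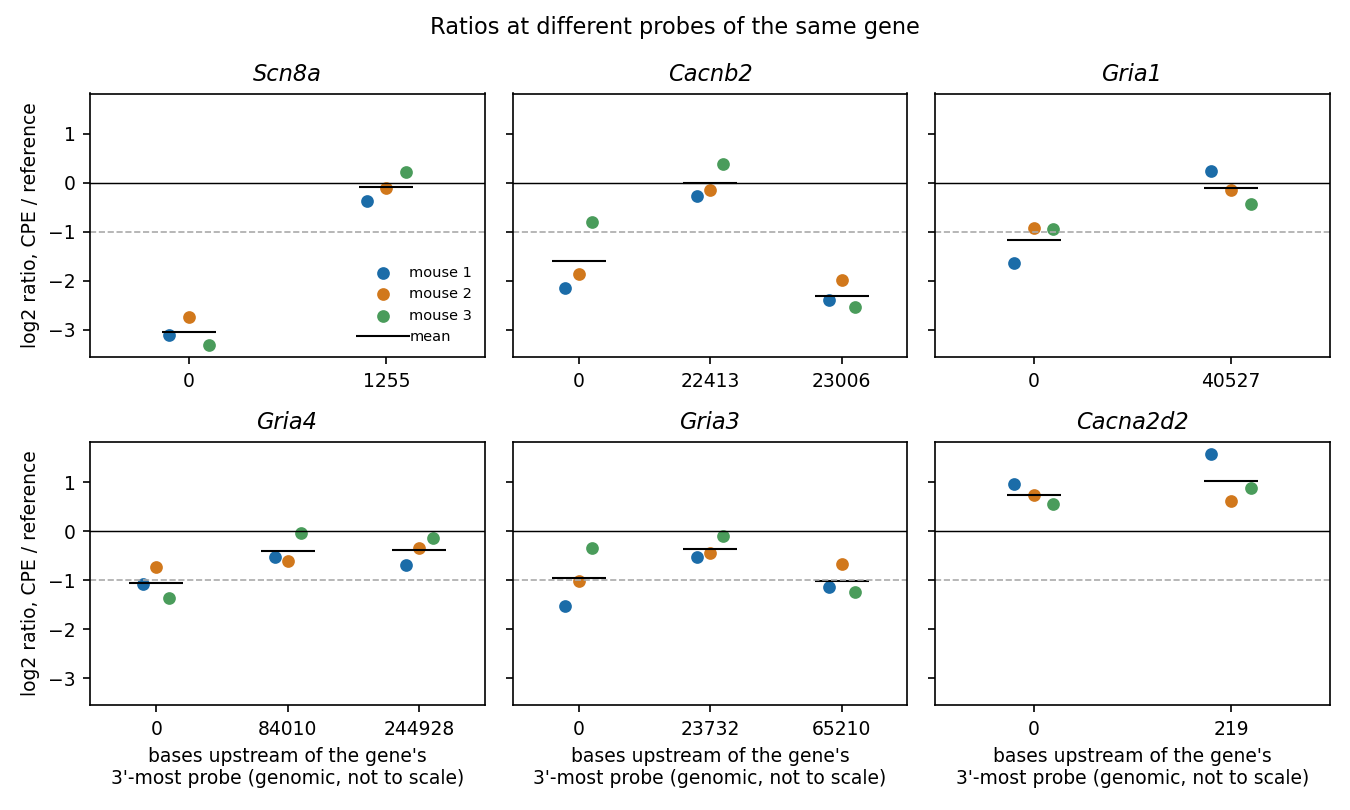
Log2 ratio of CPE over reference at each tested probe of 6 genes, with 1 point per mouse and a bar at the mean, ordered by genomic distance upstream of the gene's 3′-most probe (spacing not to scale). In Scn8a, Gria1 and Gria4 the lowest mean is at distance 0 and the ratios lie nearer 0 upstream, whereas in Cacnb2 the probes at 0 and 23006 bases are low and the one between them is near 0.

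Other proteins of the same synapses and channel complexes were followed through 4 lists, with the brightest probe for each gene. Of 74 partner genes 73 were on the array, 63 were tested, 16 were lower in CPE and 7 higher, where the shares over all tested probes were 10.2% and 7.09%. Among the partners of GABA and glycine receptors 5 of 18 tested genes were lower and 2 higher (median -0.14). The neuronal chloride exporter Slc12a5 had ratios of -4.96, -4.31 and -4.51 (mean -4.59), and the GABA-synthesising enzyme Gad1 (-2.82), the glycine transporter Slc6a9 (-2.78) and the vesicular GABA transporter Slc32a1 (-2.53) were lower as well. Gad1 also counts among the neuron markers, and Slc6a9 and Slc32a1 among those of the inner retina. The higher genes were the metabotropic GABA receptor subunit Gabbr2 and Plcl1, which binds GABA-A receptors, each with a mean of 1.41.

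Among 17 tested partners of glutamate receptors 2 were lower and 2 higher (median -0.08): Nsf (-1.82) and the scaffold Dlg2 (-1.42) were lower, and the scaffolds Shank3 (1.68) and Dlg4 (1.09) higher. Among 9 tested partners of nicotinic receptors the secreted modulator Slurp1 (-3.24) and the agrin receptor Lrp4 (-1.08) were lower and the membrane-bound modulator Lynx1 higher, with ratios of 1.62, 0.95 and 1.11 (mean 1.23). Lynx1, known to bind Chrna4-containing receptors, had its probe in the high class in CPE. Among 19 tested partners of sodium and calcium channels 7 were lower and 2 higher (median -0.39). The lower ones included the ankyrins Ank2 (-2.23) and Ank3 (-1.89), the intracellular FGF Fgf12 (-1.71), the ubiquitin ligase Nedd4l (-1.61) and the calcium channel inhibitor Gem (-1.58). All of these ratios passed the limma test at the same threshold.

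With the normalization used for the ranks, the spread between mice was no wider in CPE than in the repeated reference for most detected channel probes. Over the 31 channel probes detected in both channels, 11 (35.5%) had the larger SD of the log2 level in CPE, against 47.4% of all such probes. The median SD was 0.30 in CPE and 0.50 in the reference for the channel probes, and 0.34 and 0.31 over all probes. The reference was 1 RNA on every array, so its SD holds no biological spread. With quantile normalization the count was 23 of 31, and it was higher still with median centring of each channel. The order of the CPE and reference channels thus depends on the normalization.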

How the data were processed

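RNA was isolated from laser-dissected CPE (sections of 20 µm), amplified and hybridised by the authors on 3 two-colour Agilent whole-genome mouse arrays, 1 per mouse, against 1 RPE/choroid reference RNA. The deposited scanner tables, for which the authors used Agilent Feature Extraction (9.5.3.1), hold the mean intensity of each spot and its local background in both channels, flags of the scanner software, and the log10 of red over green. The deposited table of log2 levels, which the authors had normalized with Aquantile, ranked spots as the CPE channel did (Spearman's rho over spots 0.998 to 0.999 on the 3 arrays) and served as an alternative. Its medians were 6.99, 6.93 and 6.90, and it was not stated whether a background correction preceded it.

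Spots flagged as outliers and control spots were dropped, and duplicate spots were averaged, which gave 41174 probes. All values came from R 4.3.3 with limma 3.58.1. Ratios were formed after normexp background correction (offset 50) and loess within arrays, and fitted with an intercept alone and eBayes over the 25847 probes that passed the flag for a signal well above background on every array in the CPE or the reference channel. Ranks used the uncorrected mean red intensity on the log2 scale after Aquantile. Summed marker intensities and the fold values of probes well above background on no CPE array used normexp, loess and Aquantile. No channel probe was saturated. Positions of probes were taken from the scanner files (mm8), for which no annotation was used here, so exons are not given. The precision is limited by the number of arrays, and the error of a ratio holds no biological spread of the reference, which was 1 RNA. The fit was tested on simulated data.

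The genes, families and lists of markers and partners were chosen with earlier results of these data known. Named in the text are the channel genes past the threshold (up to 15 per direction, with the brightest of their passing probes), the top gene of each family by percentile in CPE, up to 6 genes whose probes differ in passing, and up to 5 partner genes per list. Other channel genes are given with their values because they share a family with these, and were chosen after their values were seen. Alternatives covered the background correction, normalization, filter, array weights, fold limit, treat test, detection flag and leaving out each mouse. Some genes named by these rules are counted in the totals and are not reported here.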

Additional observations from a re-analysis of the deposited data

How the results depend on the processing

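The number of channel probes higher in CPE was 3 and fell to 0 when limma's treat tested against 2-fold, and it was 1 to 3 with a mouse left out (1 without mouse 1 or mouse 2). The number of lower probes was 15, and it was 29 with the log ratio of the scanner software, 29 with a limit of 1.5-fold, 7 with treat, 7 among probes well above background in both channels, and 14 to 22 with a mouse left out. Of the partner genes 23 passed, 9 with treat and 20 to 25 with a mouse left out. Channel genes detected in CPE numbered 30, and 66 with the flag for a positive and significant signal, 51 with at least 2 of 3 arrays, and 31 to 48 with a mouse left out. In the reference they numbered 62, and 63 to 70 with a mouse left out. Channel probes with the larger SD in CPE numbered 11 of 31, 23 with quantile normalization, 27 with median centring of each channel, and 10 to 17 with a mouse left out. The high expression class held 0 channel probes in all 8 alternatives. Median centring in place of loess shifted the median of all tested probes from -0.04 to 0.09 and that of the channel probes to -0.35, with 4 channel probes higher and 18 lower. Over all tested probes the calls then changed from 7.09% higher and 10.2% lower to 14.5% and 7.13%. For the named ratios no value past the threshold changed sign, 278 values kept their sign and their side of the threshold, 26 lost the call and 12 gained it. The other 9 changed sign, at 5 probes that did not pass and whose ratios were at most 0.19 in size: Cacnb4 was at 0.21 and Scn3b at 0.23 with median centring, Scn3b at 0.042 with the log ratio of the scanner software, and the second Gria1 probe at 0.021 with array weights. With a mouse left out, Scn3b ran from -0.27 to 0.11, the middle Cacnb2 probe from -0.21 to 0.12, the second Gria1 probe from -0.29 to 0.047 and the second Scn8a probe from -0.24 to 0.059. The cause of these changes was not tested, except that treat and the 1.5-fold limit move the threshold itself and the filter on both channels leaves 31 channel probes. No paired analysis was possible because the arrays form 1 group, in which each mouse appears once. With 3 arrays, no dye swap and 1 reference RNA, dye bias and tissue cannot be told apart, and dim probes have little room for a ratio.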
